A study of Homo sapiens with 6 samples.

Results

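Heat shock proteins and folding chaperones were followed through 36 genes, chosen by name and role, by a rule that uses no measured value though with earlier results of these data known, out of 36415 genes to which transcripts could be assigned. They comprised 7 genes of the HSP70 and HSP110 families, 6 J-domain proteins, 4 genes of the small heat shock protein group with BAG3, 8 genes of HSP90 and its co-chaperones, the 2 genes of the mitochondrial chaperonin, 7 subunits of the cytosolic chaperonin CCT and the 2 heat shock factors HSF1 and HSF2. RNA sequencing had been performed on HCT116 MCM2-mAID cells, a human colorectal carcinoma line in which both alleles of MCM2, a subunit of the MCM replicative helicase, carry a mini auxin-inducible degron. The line is 1 clone (clone 16) and expresses the plant auxin receptor AtAFB2 from the CMV promoter. There were 3 libraries from cells given auxin (3-indoleacetic acid at 500 µM) and 3 from cells given the solvent DMSO. According to the methods of the study, all cells were synchronised with thymidine, stained with Hoechst and sorted from the left part of the G1 peak. The comparison asks which chaperone mRNAs differed after the degron was triggered. Since both groups carry the degron and the receptor, an effect of the auxin compound and an effect of losing MCM2 cannot be told apart.

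Molecular chaperones bind unfolded or partly folded proteins and help them to reach or keep their native structure. HSP70 proteins bind short exposed stretches in a cycle driven by ATP, in which J-domain proteins deliver substrates and stimulate hydrolysis and nucleotide exchange factors release them. HSP90 acts later, on near-native clients such as kinases and steroid receptors, with co-chaperones that set its cycle. Chaperonins enclose substrates in a chamber: CCT folds actin and tubulin in the cytosol, and HSP60 with its lid HSP10 works in the mitochondrial matrix. Small heat shock proteins hold unfolding proteins without ATP. HSF1 activates many, but not all, of these genes during heat shock by binding arrays of the motif nGAAn, whereas the CCT genes are known mainly as constitutive genes of growing cells.

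The auxin libraries held 62776708, 66838565 and 63888527 estimated counts, and the DMSO libraries held 68417081, 52528902 and 63735641 (exact permutation p = 0.8, two-sided, with 0.1 the smallest p that 3 against 3 libraries allow). MCM2 mRNA, which the degron does not target, had 354, 347 and 356 CPM (the counts-per-million unit, scaled by library size and TMM factor) in auxin and 367, 343 and 389 CPM in DMSO, and it was not called (adjusted p = 0.557). The cell type was checked with marker lists. Of 12 epithelial colon markers, KRT8, KRT18, KRT19 and EPCAM were abundant, CDX1 was listed at 0, and VIL1, LGALS4 and CDH17 were below 1 TPM (the transcripts-per-million unit, which accounts for length). The summed level of that list was 3746 to 4032 TPM in auxin and 3844 to 4334 TPM in DMSO. The 10 fibroblast markers summed to 13.5 to 15.2 TPM in auxin and 11.9 to 14.2 TPM in DMSO, and the 10 leukocyte markers to 14.0 to 15.4 TPM in auxin and 12.3 to 13.5 TPM in DMSO. Most of each sum was COL1A1 or CD68, and PTPRC, CD3E, COL1A2 and DCN were below 1 TPM in both groups.

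Most chaperone mRNAs were slightly lower in auxin, and 4 of them passed the test. Of the 36 genes, 34 passed the filter on low counts and were tested among 15765 genes with the quasi-likelihood test of edgeR, in which a gene is called at a Benjamini-Hochberg adjusted p under 0.1. HSPB1, HSPE1, DNAJA1 and TCP1 fell, which is 4 of 34 (11.8%) against 2.46% of all tested genes called lower. None of the 34 rose by edgeR, against 4.32% of all tested genes, and none was called higher by DESeq2 or limma-voom. The log2 fold change (auxin minus DMSO throughout) was below 0 for 31 of the 34 and for 26 of them on the TPM scale, and the median was -0.10, against 0.01 over all tested genes. On the log2(TPM + 1) scale these medians were -0.04 for the members and 0.05 for all genes. An unadjusted p under 0.05 was reached by 20 of the 34, all lower, against 9.56% of all genes. All 3 auxin libraries lay below all 3 DMSO libraries for 24 of the 34, a pattern found in 13.0% of all tested genes. Of the 34, 27 were among the 1577 genes with the highest mean CPM. In that class 39.2% of genes had this pattern, 8.24% were called lower and the median was -0.08. The reverse pattern was found in 0 of the 34 and in 13.7% of all genes, and the groups overlapped for 10. The number called depended on single libraries. Leaving out auxin 1, 2 or 3 in turn left 1, 0 and 0 calls, and leaving out DMSO 1, 2 or 3 left 8, 1 and 0. Of all tested genes 6.78% were called in either direction, and 7.13%, 1.15% and 2.10% without auxin 1, 2 or 3 and 9.79%, 1.97% and 1.56% without DMSO 1, 2 or 3. The study describes the triplicates as independent, but the sources used here do not say whether they were separate cultures, so the p-values here cover library-to-library spread, which may be technical. In bulk RNA, fewer cells of a kind and less RNA per cell cannot be told apart.

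**Figure D1:**
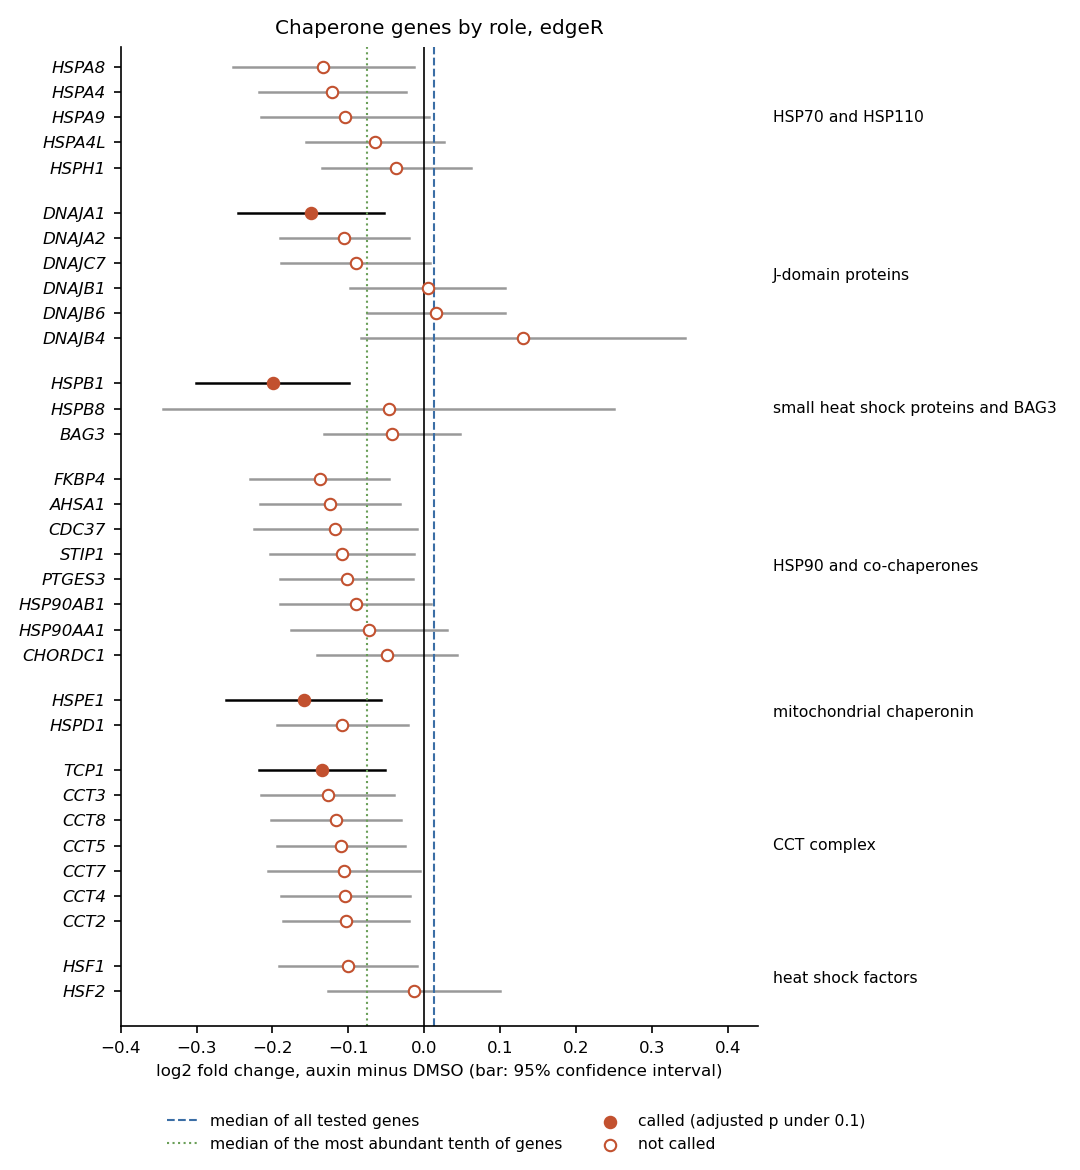
Log2 fold change (auxin minus DMSO) of the tested chaperone genes, grouped by role, with 95% confidence intervals from edgeR. Filled points are the 4 called genes; HSPA1B, whose interval reached from -4.79 to 3.54, is left out. Points lie mostly left of both the median of all tested genes (0.01) and the median of the 1577 most abundant genes (-0.08).

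Promoters were read for the members because most of them lay on 1 side of 0 together. The RefSeq table (GRCh38.p14) holds 33 of the 36, each as 250 bases before and 50 after the annotated start. Of each gene 1 annotated start was read, the first listed, and it was not matched to the start of the most abundant transcript. A window without a match therefore does not speak for other starts of the gene. A heat shock element was searched as 3 alternating units, GAANNTTCNNGAA or TTCNNGAANNTTC, which are reverse complements of each other, so that both strands are covered; matches may overlap. It was present in 4 of 33 member promoters (12.1%: HSPA8, CHORDC1, DNAJA1 and DNAJB6), against 0.490% of all 35116 promoters of that length. Only exact units were counted, so an element with a changed base was missed. The heat-inducible genes HSPA1A, HSPA1B, HSPH1, HSP90AA1 and DNAJB1 were among those without a match of 3 units, which does not show that they lack a heat shock element. A pair of units, GAANNTTC or TTCNNGAA, each its own reverse complement and also contained in the longer motif, was present in 11 of 33 (33.3%), against 13.5% of all promoters. CHORDC1 had 3 overlapping matches of 3 units, which begin 60, 55 and 50 bases before its start. The log2 fold changes of the 4 genes with 3 units were -0.15 (DNAJA1, called), -0.13 (HSPA8), -0.05 (CHORDC1) and 0.02 (DNAJB6). The 5 promoters shown here, 5′ to 3′ on the strand of the gene, are those of the called genes and of HSPA8; capitals mark every pair of units, and 13 capitals in a row are a match of 3 units. HSPA8 (chr11:123062087-123062386, minus strand) has matches of 3 units that begin 230 and 55 bases before the start, DNAJA1 (chr9:33025023-33025322, plus strand) has 1 that begins 3 bases after it and a separate pair, HSPB1 (chr7:76302423-76302722, plus strand) and TCP1 (chr6:159789553-159789852, minus strand) have 1 pair each, and HSPE1 (chr2:197500129-197500428, plus strand) has none of these letters in its window, which also holds the start of HSPD1.
HSPA8: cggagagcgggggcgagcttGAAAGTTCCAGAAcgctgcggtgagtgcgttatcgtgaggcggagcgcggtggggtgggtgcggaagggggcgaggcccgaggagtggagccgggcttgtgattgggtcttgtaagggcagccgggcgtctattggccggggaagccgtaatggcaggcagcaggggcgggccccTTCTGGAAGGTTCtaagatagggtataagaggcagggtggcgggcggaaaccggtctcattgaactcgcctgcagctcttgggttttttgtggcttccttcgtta
DNAJA1: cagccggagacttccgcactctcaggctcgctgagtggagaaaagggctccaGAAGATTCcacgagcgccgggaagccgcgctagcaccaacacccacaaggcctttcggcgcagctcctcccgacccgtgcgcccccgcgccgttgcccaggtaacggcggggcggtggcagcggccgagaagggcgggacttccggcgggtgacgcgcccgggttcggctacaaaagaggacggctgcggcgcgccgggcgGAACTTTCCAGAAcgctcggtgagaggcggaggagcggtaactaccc
HSPB1: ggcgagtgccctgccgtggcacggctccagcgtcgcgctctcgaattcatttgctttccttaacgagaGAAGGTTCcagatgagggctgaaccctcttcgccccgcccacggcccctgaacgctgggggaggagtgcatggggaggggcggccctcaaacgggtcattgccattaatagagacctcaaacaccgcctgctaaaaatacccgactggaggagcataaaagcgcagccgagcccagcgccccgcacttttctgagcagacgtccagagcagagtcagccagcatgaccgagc
TCP1: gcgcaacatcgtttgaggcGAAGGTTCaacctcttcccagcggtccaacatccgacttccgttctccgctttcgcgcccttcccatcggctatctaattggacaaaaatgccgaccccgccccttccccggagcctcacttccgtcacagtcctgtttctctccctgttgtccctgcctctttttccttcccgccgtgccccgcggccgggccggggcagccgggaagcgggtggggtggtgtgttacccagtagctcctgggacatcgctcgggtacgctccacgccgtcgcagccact
HSPE1: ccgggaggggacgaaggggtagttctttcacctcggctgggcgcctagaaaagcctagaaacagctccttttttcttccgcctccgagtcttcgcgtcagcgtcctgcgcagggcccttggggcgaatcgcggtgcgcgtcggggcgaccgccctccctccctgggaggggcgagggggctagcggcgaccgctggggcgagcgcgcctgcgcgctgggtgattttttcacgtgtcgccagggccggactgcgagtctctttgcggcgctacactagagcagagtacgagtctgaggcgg

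A match is a description of letters, and binding was not measured. Of the 4 called genes, 1 held 3 units, 2 a single pair and 1 neither. DNAJB1, which did not separate between the groups, held neither in the 1 window read (14529222 to 14529521). Whether the main transcript of DNAJB1 starts there was not tested. Members that did separate also held neither, such as HSPD1, HSPE1, CCT2 and CCT3. Of the genes with 3 units, HSPA8 and DNAJA1 separated, and CHORDC1 and DNAJB6 did not. A link between motif and change was not tested.

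Among HSP70 and HSP110 genes edgeR called none and DESeq2 called HSPA8 and HSPA4, against 5.35% of all genes called lower by DESeq2. HSPA8 encodes HSC70, an HSP70 abundant in unstressed cells that also removes clathrin coats (hg38 chromosome 11, 123057489 to 123063230, minus strand). It had 3234, 3530 and 3649 CPM in auxin and 3694, 3767 and 3957 CPM in DMSO. Every auxin library lay below every DMSO library, but the auxin libraries also spread more among themselves, with replicate 1 the lowest. The promoter of HSPA8 was the one shown with a pair of 3-unit matches. The log2 fold change was -0.13 (SE 0.054, adjusted p = 0.193). HSPA9, the mitochondrial HSP70 mortalin (chromosome 5, 138553756 to 138575675, minus strand), had 713, 696 and 679.9 CPM in auxin and 779, 696 and 771 CPM in DMSO. DMSO replicate 2 lay at the auxin level, so the groups overlapped, and the log2 fold change was -0.10 (SE 0.050, adjusted p = 0.258). HSPA4, an HSP110 protein that acts as a nucleotide exchange factor, had a log2 fold change of -0.12 (adjusted p = 0.154) with no overlap between groups, and it was called after correction for length and GC content (-0.16, adjusted p = 0.0754). Its relatives HSPA4L and HSPH1 lay at -0.06 (adjusted p = 0.399) and -0.04 (adjusted p = 0.686), and at -0.13 and -0.09 after that correction, without a call. Per length, the 7 genes summed to 2897 ± 86.6 TPM (SD, n = 3) for auxin, against 3023 ± 125 TPM for DMSO, of which HSPA8 supplied 75.1 ± 1.62% in auxin and 75.7 ± 0.91% in DMSO.

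Among the J-domain partners of HSP70, edgeR called 1 of 6, against 2.46% of all tested genes called lower. Their log2 fold changes were of either sign. DNAJA1, a type I J-domain protein of the cytosol (chromosome 9, 33025273 to 33039907, plus strand), had 689, 682 and 667 CPM in auxin and 767, 716 and 777 CPM in DMSO. The groups did not overlap, and DNAJA1 fell by 9.83% (log2 fold change -0.15, SE 0.044, adjusted p = 0.0937). Leaving out auxin 1, 2 or 3 gave adjusted p of 0.123, 0.296 and 0.273, and leaving out DMSO 1, 2 or 3 gave 0.108, 0.0811 and 0.235, so the call held in 1 of 6 such fits. DNAJB1, the heat-inducible HSP40 that drives HSP70 in disaggregation (chromosome 19, 14514769 to 14560391, minus strand), had 499, 536 and 541 CPM in auxin and 503, 529 and 539 CPM in DMSO. Each auxin library stood beside a DMSO library of nearly the same level, and the log2 fold change was 0.00 with a 95% interval from -0.10 to 0.11. DNAJA2, the close relative of DNAJA1, and DNAJC7, a J-domain protein with tetratricopeptide repeats that binds both HSP70 and HSP90, lay at -0.11 (adjusted p = 0.156) and -0.09 (adjusted p = 0.271) without overlap. DNAJB6, a suppressor of aggregation, lay at 0.02 (95% interval -0.08 to 0.11). DNAJB4 had the highest log2 fold change of all members, 0.13 (SE 0.095, adjusted p = 0.467), with 22.8 to 28.0 CPM in auxin and 21.3 to 25.8 CPM in DMSO, so that the groups overlapped. On the log2(TPM + 1) scale it lay at 0.22 (limma, unadjusted p = 0.0159, adjusted p = 0.188).

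HSPB1, the small heat shock protein HSP27, showed the largest called change among the members. It lies on chromosome 7 (76302673 to 76304295, plus strand) and had 422, 408 and 425 CPM in auxin and 458, 477 and 506 CPM in DMSO. The groups did not overlap, and HSPB1 fell by 12.9% (log2 fold change -0.20, SE 0.046, 95% interval -0.30 to -0.10, adjusted p = 0.0492). Leaving out auxin 1, 2 or 3 gave adjusted p of 0.0676, 0.238 and 0.124, and leaving out DMSO 1, 2 or 3 gave 0.0214, 0.112 and 0.149, so the call held in 2 of 6 such fits. Correcting each library for its trend with transcript length and GC content gave -0.12 (adjusted p = 0.140), no longer a call. BAG3, a co-chaperone that links HSP70 to small heat shock proteins and to autophagy (chromosome 10, 119651380 to 119677819, plus strand), had 147, 141 and 148 CPM in auxin and 147, 149 and 154 CPM in DMSO. The groups overlapped and the log2 fold change was -0.04 (SE 0.040, adjusted p = 0.589), or -0.08 with the correction (adjusted p = 0.245). HSPB8, the partner of BAG3, was low in every library, with 7.23 to 9.65 CPM in auxin and 7.67 to 10.3 CPM in DMSO (log2 fold change -0.05, adjusted p = 0.882). CRYAB, which encodes αB-crystallin, did not pass the filter, with a mean of 0.127 CPM in auxin and 0.143 CPM in DMSO.

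The 2 cytosolic HSP90 genes were the members with most counts, and all 8 genes of the HSP90 group had a log2 fold change below 0 (from -0.14 to -0.05; on the TPM scale CHORDC1 lay at 0.04). EdgeR called none of the 8, DESeq2 called FKBP4, AHSA1 and PTGES3 (against 5.35% of all genes lower), and the fit corrected for length and GC content called FKBP4 (against 3.76%). HSP90AA1, the inducible paralogue (chromosome 14, 102080742 to 102139699, minus strand), had 4936, 5117 and 5070.2 CPM in auxin and 5159, 5181 and 5564 CPM in DMSO. HSP90AB1, the constitutive paralogue (chromosome 6, 44246166 to 44253888, plus strand), had 5033, 4942 and 5011 CPM in auxin and 5334, 5105 and 5514 CPM in DMSO. For both genes the auxin libraries lay below the DMSO libraries, by little next to the spread among the DMSO libraries, in which replicate 3 was the highest. The log2 fold changes were -0.07 (SE 0.047, adjusted p = 0.401) and -0.09 (SE 0.045, adjusted p = 0.279), and the correction moved HSP90AA1 to -0.13 (adjusted p = 0.205). The ratio of HSP90AA1 to HSP90AB1 in TPM was 0.795 ± 0.021 for auxin (SD, n = 3) and 0.785 ± 0.020 for DMSO, a difference smaller than the spread between libraries. Of the co-chaperones, the immunophilin FKBP4 came closest to a call, at -0.14 (SE 0.041, adjusted p = 0.101), just outside the threshold that HSPE1 and DNAJA1 just passed. The HSP90 ATPase activator AHSA1 lay at -0.12 (adjusted p = 0.131), the kinase adaptor CDC37 at -0.12 (0.202), the HSP70 to HSP90 linker STIP1 at -0.11 (0.182) and the p23 gene PTGES3 at -0.10 (0.174), all without overlap. CHORDC1, a zinc-binding co-chaperone, lay at -0.05 (0.537) with overlap.

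**Figure D2:**
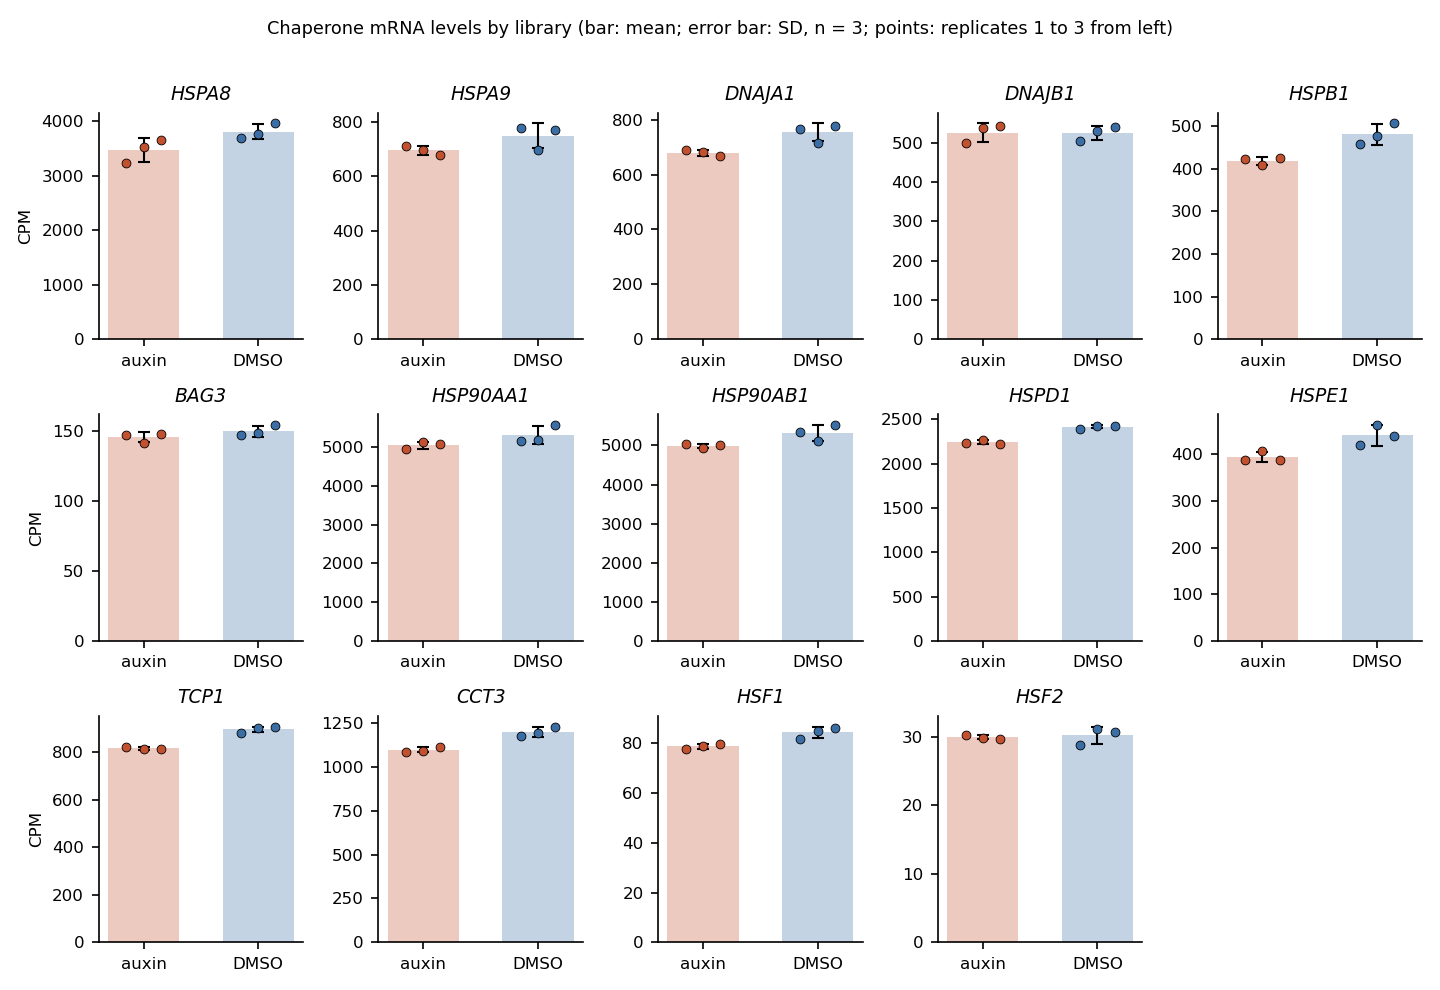
CPM of the 14 members given with values in every library, in auxin (left of each panel) and DMSO (right); bars are means, error bars SD (n = 3), points replicates 1 to 3 from left. The axes start at 0. HSPB1, HSPE1, DNAJA1 and TCP1 were called; DNAJB1, with 499 to 541 CPM in auxin and 503 to 539 CPM in DMSO, shows no separation.

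Both genes of the mitochondrial chaperonin were lower in every auxin library than in any DMSO library, and edgeR called HSPE1. That separation was found in 13.0% of all tested genes and 39.2% of the 1577 most abundant ones, and 2.46% of all tested genes were called lower. HSPD1 encodes the barrel protein HSP60 and HSPE1 its lid HSP10, and the 2 genes stand head to head on chromosome 2 with overlapping annotated spans, with RefSeq start sites 105 bases apart (197500274 on the minus strand and 197500379 on the plus strand). HSPE1 (197500140 to 197503449) had 389, 407 and 389 CPM in auxin and 419.9, 463 and 439 CPM in DMSO, and it fell by 10.4% (log2 fold change -0.16, SE 0.046, adjusted p = 0.0929). Leaving out auxin 1, 2 or 3 gave adjusted p of 0.156, 0.237 and 0.255, and leaving out DMSO 1, 2 or 3 gave 0.0361, 0.181 and 0.205, so the call held in 1 of 6 such fits. Corrected for length and GC content it lay at -0.06 (adjusted p = 0.301) and was not called. HSPD1 (197486584 to 197516737) had 2233, 2268 and 2223 CPM in auxin and 2395, 2423 and 2429 CPM in DMSO, with little spread within either group. It lay at -0.11 (SE 0.039, adjusted p = 0.152), and at -0.13 after the same correction, where it was called (adjusted p = 0.0857). The ratio of HSPE1 to HSPD1 in TPM was 0.937, 0.971 and 0.943 in auxin and 0.947, 1.04 and 0.971 in DMSO, so the groups overlapped in the balance of barrel and lid. The 2 genes together amounted to 2685, 2686 and 2638 TPM in auxin and 2779, 2834 and 2816 TPM in DMSO, without overlap.

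The 7 CCT subunits among the members lay in a narrow band below 0, and edgeR called 1 of them, against 2.46% of all tested genes called lower. CCT6A, a subunit outside the members, lay at -0.09 and is not in the sums below. All 7 had a log2 fold change below 0 in the edgeR fit and in each of the 19 alternative fits, including the TPM scale, and all 7 had auxin libraries below every DMSO library, against 13.0% of all tested genes and 39.2% of the 1577 most abundant ones. Their log2 fold changes spanned only from -0.13 to -0.10 (SD among the 7 of 0.012), less than the smallest SE of any one of them (0.037). TCP1, the alpha subunit (chromosome 6, 159778498 to 159789703, minus strand), had 823, 812 and 813 CPM in auxin and 883, 900.0 and 905 CPM in DMSO. It fell by 8.89% (log2 fold change -0.13, SE 0.037, adjusted p = 0.0864). Leaving out auxin 1, 2 or 3 gave adjusted p of 0.130, 0.307 and 0.257, and leaving out DMSO 1, 2 or 3 gave 0.0625, 0.135 and 0.192, so the call held in 1 of 6 such fits. CCT3, the gamma subunit and the CCT gene with most counts (chromosome 1, 156308968 to 156367873, minus strand), had 1085, 1091 and 1114 CPM in auxin and 1176, 1190.0 and 1227 CPM in DMSO (log2 fold change -0.13, SE 0.040, adjusted p = 0.110). CCT8 lay at -0.12, CCT5 and CCT7 at -0.11, and CCT4 and CCT2 at -0.10, with adjusted p from 0.128 to 0.215. Each ring holds every subunit once, yet mRNA levels per length differed between subunits. In auxin they ran from 326 TPM (CCT4) to 797 TPM (CCT3), and in DMSO from 336 to 834 TPM. The order CCT3, CCT5, TCP1, CCT7, CCT8, CCT2, CCT4 was the same in both groups. Some neighbours in that order differed by less than the sum of their SDs: TCP1 and CCT7 in auxin (659 ± 15.8 and 638 ± 17.7 TPM), CCT5 and TCP1 in DMSO (709 ± 18.3 and 695 ± 4.48 TPM), and CCT8 and CCT2 in both (508 ± 7.35 and 489 ± 12.3 TPM in auxin, 527 ± 13.9 and 502 ± 15.2 TPM in DMSO). Shares of the TPM sum of these 7 differed little, at 19.4 ± 0.22% for CCT3 in auxin and 19.6 ± 0.073% in DMSO. The share of CCT5 did not overlap between groups, with 17.0, 16.9 and 16.9% in auxin and 16.7, 16.6 and 16.7% in DMSO, a case noticed after the values were seen and given no test.

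**Figure D3:**
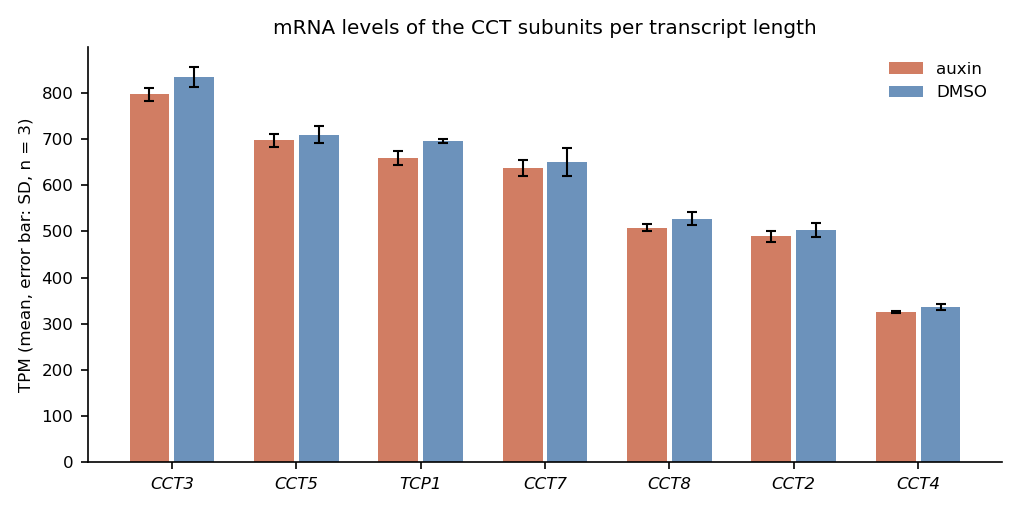
TPM of the 7 CCT subunits in auxin (left bar of each pair) and DMSO (right bar); bars are means and error bars SD (n = 3), and the axis starts at 0. Every auxin mean is below its DMSO mean, and subunits run from 326 to 797 TPM in auxin and from 336 to 834 TPM in DMSO.

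Setting the heat-inducible members apart from the CCT complex gave similar medians. The 19 members listed as induced by heat were HSPA1A, HSPA1B, HSPA4L, HSPA8, HSPH1, DNAJB1, DNAJB4, DNAJA1, HSPB1, HSPB8, CRYAB, BAG3, HSP90AA1, CHORDC1, FKBP4, STIP1, AHSA1, HSPD1 and HSPE1. Several of them, HSPA8 among them, are also well expressed without stress. Of these 17 were tested, 3 fell by edgeR (HSPB1, HSPE1 and DNAJA1) against 2.46% of all genes, 15 had a log2 fold change below 0 and the median was -0.11, or -0.09 without HSPA1A and HSPA1B. Of the 7 CCT subunits 1 fell, and their median was -0.11. The 10 members in neither set had a median of -0.10, with 0 called by edgeR (5 at an unadjusted p under 0.05), 3 by DESeq2 (against 5.35% of all genes lower) and 2 after correction for length and GC content (against 3.76%). Apart from HSPA1B, the inducible set ran from -0.20 (HSPB1) to 0.13 (DNAJB4), and 10 of these 16 genes had all auxin libraries below all DMSO libraries, against 7 of 7 CCT subunits, a difference that was not tested, and 13.0% of all tested genes. One contrast within the HSP70 cycle was noticed after the values had been seen: the ratio of DNAJB1 to HSPA8 in TPM was 0.151, 0.148 and 0.145 in auxin and 0.133, 0.137 and 0.133 in DMSO. Both genes come from the same library in this ratio, so library scaling cancels, and the groups did not overlap; no test is given because the pair was picked for its values.

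Neither of the heat shock factors was called by edgeR, DESeq2 or limma-voom. HSF1, the main activator (chromosome 8, 144291591 to 144314720, plus strand), had 77.8, 78.7 and 79.5 CPM in auxin and 81.8, 84.9 and 86.2 CPM in DMSO. The groups did not overlap, but the log2 fold change of -0.10 was not called (SE 0.041, adjusted p = 0.199). DGAT1 overlaps HSF1 on the opposite strand, 5.09% of the HSF1 31-mers (stretches of 31 bases, by which reads are assigned) also occur in it, and it held 32.2% of the joint counts, so HSF1 is uncertain. HSF2 (chromosome 6, 122399551 to 122433119, plus strand) had 30.3, 29.9 and 29.7 CPM in auxin and 28.8, 31.2 and 30.7 CPM in DMSO. The values of HSF2 overlapped, with a log2 fold change of -0.01 (95% interval -0.13 to 0.10) that lay at 0.09 on the TPM scale and at -0.03 corrected for length and GC content. RNA levels do not report the activity of HSF1, which is set at the protein level.

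The stress-inducible HSP70 genes HSPA1A and HSPA1B could not be read. Of the 31-mers of HSPA1A, 69.4% also occur in HSPA1B. HSPA1A held 0, 0 and 1 counts in auxin and 11, 0 and 8 in DMSO, and HSPA1B held 130, 147 and 0 counts in auxin and 1, 158 and 224 in DMSO. Values near 0 and values above 100 stood within the same group, and HSPA1A did not pass the filter. A transcript that matched no gene of the annotation, of the same length as HSPA1B-201 (2517 bases), held 3637, 3930 and 3535 counts in auxin and 3857, 3161 and 3321 in DMSO. Whether reads of HSPA1B were assigned to it was not tested, and no statement on either gene alone is drawn. HSPA1B (log2 fold change -0.62, SE 1.54) stays in the counts and medians over the 34 tested members.

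Without a block for the replicate number, the number of calls ranged from 0 to 16 across other tests and corrections. With that block it was larger, at 23 lower and 1 higher, against 14.6% and 16.2% of all genes. DESeq2 called 16 of the 34 members lower, against 5.35% of all genes, and 6 of these were CCT subunits. Of the members, 27 lie among the 1577 most abundant genes, of which edgeR called 8.24% lower. That share was not computed for the other fits. Limma-voom called 4 lower (DNAJA1, HSPB1, TCP1 and CCT3), against 2.18% of all genes. Corrected for length and GC content, 7 were called lower (FKBP4, DNAJA2, DNAJA1, TCP1, HSPD1, CCT3 and HSPA4), against 3.76% of all genes, and the median was -0.12, against -0.02 over all genes. DNAJA1 and TCP1 were called in each of these 3 fits without a block, but not in the following ones. With effective length offsets 1 member was called (HSPB1), against 0.546% of all genes lower, and DNAJA1 and TCP1 had adjusted p of 0.153 and 0.123. On the log2(TPM + 1) scale limma called 0, against 2.06% of all genes in either direction, 26 of the 34 lay below 0, and 3 had an unadjusted p under 0.05, HSPB1 and HSPE1 lower and DNAJB4 higher. There DNAJA1 lay at -0.09 (adjusted p = 0.412), TCP1 at -0.08 (0.300), HSPE1 at -0.10 (0.256) and HSPB1 at -0.14 (0.190).

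Chaperone genes are abundant and of medium length, and both properties moved with the fold change across all genes. Across the 15765 tested genes, which are not independent replicates, the median log2 fold change was -0.06 in the shortest 20% and 0.09 in the longest 20%. The tested members had a median effective length of 1804 bases, against 2023 bases over all genes, and 32 of the 34 lay below the median of genes of like length (10 classes of equal size). By level, 27 of the 34 members belonged to the 1577 genes with the highest mean CPM (at least 131 CPM, the top of 10 classes), where the median of all genes was -0.08, 8.24% were called lower and 39.2% had all auxin libraries below all DMSO libraries. The 27 members in that class had a median of -0.11, 4 were called lower (14.8%) and 22 had no overlap (81.5%). The mRNAs of ribosomal proteins, also abundant, had a median of -0.15 with 17 of 64 lower, or -0.07 with 1 lower after the correction for length and GC content. The 13 mitochondrially encoded mRNAs, abundant as well, had a median of 0.05 with 0 lower, and 4 of them lay below 0. The part of level in the lower chaperone values was not tested.

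**Figure D4:**
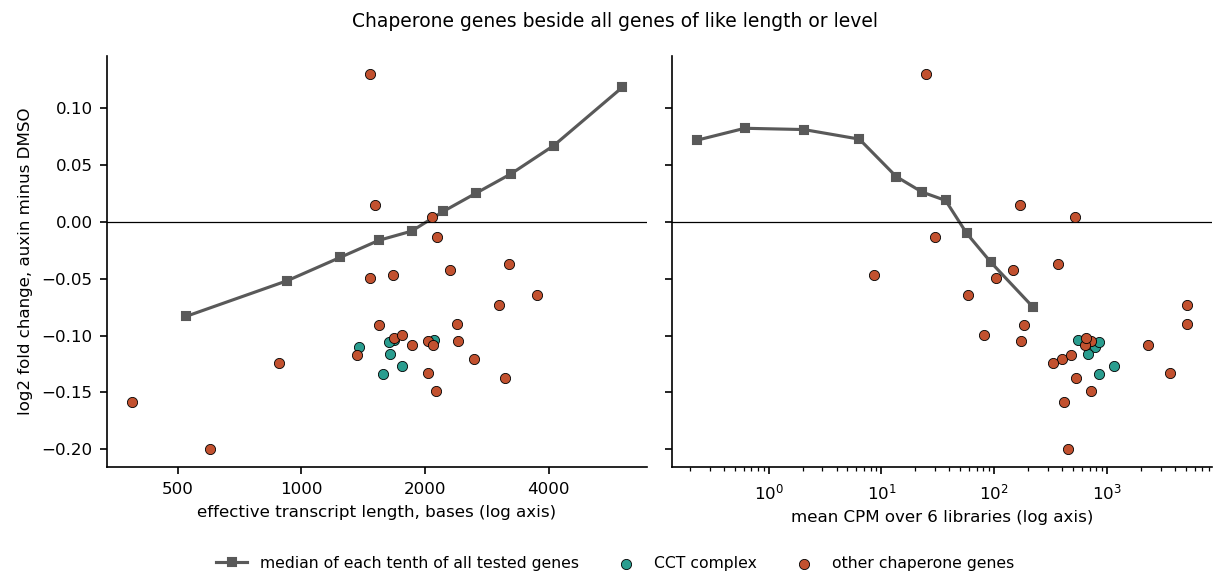
Log2 fold change (auxin minus DMSO) of the tested chaperone genes without HSPA1B, against effective transcript length (left) and mean CPM (right), on log axes. Squares joined by a line are medians of 10 equal classes of all tested genes, from -0.08 to 0.12 by length and from 0.08 to -0.08 by level. Most members lie below the line by length. By level, most abundant members lie below the last square, HSP90AA1 lies level with it, and DNAJB1, DNAJB6, HSPH1 and BAG3 lie above it.

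Of the wider folding network outside the 36, few genes were called. Of 58 listed genes 56 were tested, 2 fell by edgeR against 2.46% of all tested genes, which is near the background, 42 had a log2 fold change below 0 and the median was -0.07. Values ran from -0.21 to 0.30, and the genes at both ends had few counts (SE 0.21 and 0.16), so the range was not set against that of the members. PDRG1, a prefoldin-related protein, fell (57.9, 57.9 and 58.3 CPM in auxin, 63.2, 67.8 and 66.8 CPM in DMSO; log2 fold change -0.18, SE 0.044, adjusted p = 0.0567). GRPEL1, the nucleotide exchange factor of mitochondrial HSP70, fell as well by edgeR (168, 164 and 159 CPM in auxin, 196, 178 and 188 CPM in DMSO; -0.19, SE 0.046, adjusted p = 0.0573). EdgeR called no other gene of that list in either direction. Corrected for length and GC content, 6 were called lower, against 3.76% of all genes, among them PDRG1, GRPEL1 and BAG2 (-0.26, adjusted p = 0.028). The next smallest p-values belonged to the HSP70 exchange factors BAG1 (-0.21, adjusted p = 0.119) and BAG2 (-0.13, adjusted p = 0.126). CCT6A, a CCT subunit outside the 36 that was singled out after its value was seen, lay at -0.09 (adjusted p = 0.233).

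The values were also compared per transcript, the level at which they were deposited. Of 439 listed transcripts of the 36 genes, 287 were tested and 0 were called by edgeR, against 0.00256% of all 78049 tested transcripts; limma-voom also called 0. An unadjusted p under 0.05 was reached by 30 of the 287 (28 lower, 2 higher), against 6.57% of all transcripts. For 3 of the called genes 1 transcript held most of the TPM, and for TCP1 the reads were spread over several. HSPB1-201 made up 93.9% of the HSPB1 TPM in auxin and 94.0% in DMSO (log2 fold change -0.20, adjusted p = 0.620), HSPE1-201 94.5% and 94.3% (-0.16, 0.638), DNAJA1-201 98.5% and 98.7% (-0.15, 0.710) and TCP1-202 39.7% and 39.5% (-0.13, 0.594). For HSP90AA1, HSP90AB1, HSPD1, CCT3, BAG3 and DNAJB1, the main transcript held at least 93.2% of the gene's TPM in both groups. HSPA8 was looked at further after its values were seen. HSPA8-224, its main transcript, had 1757, 1801 and 1889 TPM in auxin and 1795, 1821 and 1792 TPM in DMSO (log2 fold change -0.05, adjusted p = 0.896). The second, HSPA8-201, had 203, 275 and 289.9 TPM in auxin and 359, 287 and 498 TPM in DMSO (-0.63, SE 0.24, adjusted p = 0.733), or 11.8% of the HSPA8 TPM in auxin and 16.7% in DMSO. Auxin replicate 3 lay just above DMSO replicate 2, so the groups overlapped, and the error of assigning reads among transcripts was not measured here.

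Several members have near-identical copies. Over the most abundant transcript of each gene, the share of 31-mers that also occur in another annotated gene was 55.0% for HSPE1, 50.9% for HSPD1, 45.0% for HSPA8, 42.0% for HSP90AB1, 34.1% for TCP1, 22.5% for HSPB1 and 8.04% for DNAJA1, and it was 0% for CCT2, CCT3, AHSA1, BAG3 and HSPH1. Genes named as pseudogenes of the member were the leading partners of HSPD1, HSPA8, HSPB1 and TCP1, and the readthrough gene HSPE1-MOB4 that of HSPE1. The partners that share over 5% took little of the joint counts, at 0.058% for HSPB1, 0.012% for HSPA8, 2.73% for HSPE1 and 5.02% for TCP1, which ACAT2 overlaps on the opposite strand. These counts come from the same read assignment, so they cannot show whether shared reads were divided correctly. DNAJC7 is uncertain, since CNP, which overlaps it on the opposite strand and shares 19.3% of its 31-mers, held 45.1% of the joint counts. The strand setting of the read assignment is not given in the sources used here.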

How the data were processed

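RNA was sequenced from 3 auxin and 3 DMSO libraries. The authors assigned reads to transcripts with kallisto (hg38; transcript release and strand setting not given in the sources used here) and tested transcripts with sleuth. The deposited tables hold estimated counts per transcript, not normalised, of which 45.6% are whole within 1e-06, with transcript lengths and effective lengths in bases. TPM was computed here from estimated counts and effective lengths. Of 199240 transcripts, 178869 matched GENCODE 44 and were summed to 36415 genes, and 20371 were left out; matched transcripts held 96.2 to 96.3% of the counts. Summed estimated counts were rounded and tested with edgeR 4.0.16 (R 4.3.3; quasi-likelihood, robust, TMM factors, filterByExpr with a minimum count of 10 and a total of 15) without a block, at a Benjamini-Hochberg adjusted p under 0.1, the rate used in the study. CPM values use the TMM factors. Limma 3.58.1 (voom, or log2(TPM + 1) and log2(TPM + 0.1)), DESeq2 1.42.0, upper-quartile factors, other filters, effective length offsets, length and GC trends removed with mgcv 1.9.3, a replicate block and leaving out each library were the alternatives, and replicates 2 and 3 alone were added after seeing the data. The code was tested on simulated data. The 36 genes and all lists were chosen with earlier results of these data known. Values in every library are given for called members, the 2 most abundant members of each role class and HSF1 and HSF2, and counts for HSPA1A and HSPA1B, which could not be read; of other folding genes, the called ones and the 4 with the smallest p are named, and of transcripts the called ones and the most abundant one of each gene described in full. Precision was lowest for the members with few counts, HSPA1B (SE 1.54), HSPB8 (SE 0.13) and DNAJB4 (SE 0.095).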

Additional observations from a re-analysis of the deposited data

How the results depend on the processing

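The count of 4 called chaperone genes (2.46% of all genes lower) was 16 with DESeq2 (5.35%), 8 with the length trend removed (2.79%), 7 with the length and GC trend removed (3.76%), 1 with effective length offsets (0.546%), and 0 on both the log2(TPM + 1) and the log2(TPM + 0.1) scale, where 3 had an unadjusted p under 0.05 (HSPB1 and HSPE1 lower, DNAJB4 higher) and 2.06% and 2.45% of all genes were called in either direction. It was 4 with limma-voom, 4 with upper-quartile factors, 4 without a filter and 5 with the stricter filter, in which 6.07%, 6.65%, 4.97% and 10.3% of all genes were called in either direction, against 6.78%. These were not always the same genes: limma-voom called CCT3 and not HSPE1, and without a filter TCP1 was lost (adjusted p = 0.122) and the low-count HSPA1A was called. Replicates 2 and 3 alone, an alternative chosen after seeing the data, gave 8, with 16.3% of all genes called in either direction, and leaving out each library in turn gave 0 to 8. The median of -0.10 was -0.037 on both TPM scales (-0.0373 and -0.0374, against 0.053 and 0.073 over all genes, which had 0.013 before) and -0.13 to -0.09 when a library was left out. The cause of these changes was not tested, except that leaving out a library also leaves fewer samples.

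Signs turned for DNAJB1, HSF2, CHORDC1, HSPH1, BAG3, HSPB8 and DNAJB6, none of them called by edgeR. DNAJB1 was -0.0037 with DESeq2, -0.0017 with upper-quartile factors, -0.018 with the length trend removed, -0.023 with the length and GC trend removed and -0.024 with the block added to that correction, and it ran from -0.035 to 0.040 when a library was left out. HSF2 was 0.091 and 0.096 on the 2 TPM scales, 0.031 with effective length offsets and -0.059 to 0.00047 with a library left out. On the log2(TPM + 1) and log2(TPM + 0.1) scales CHORDC1 was 0.0414 and 0.0418, HSPH1 0.0185 and 0.0186, BAG3 0.0133 and 0.0134, and HSPB8 0.0083 and 0.0094, and HSPB8 ran from -0.15 to 0.085 with a library left out. DNAJB6 was -0.010 with replicates 2 and 3 alone and -0.0095 to 0.029 with a library left out.

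The replicate numbers were not taken as pairs, because the study states no covariate. Deviations of same-numbered libraries correlated at 0.18, 0.051 and 0.067, and each library correlated best with its own number. Whether the numbers mark pairs is therefore not known. With a replicate block 24 chaperone genes were called (23 lower and DNAJB4 higher), against 14.6% of all genes lower and 16.2% higher, and 27 with the block and the length and GC correction together (26 lower), against 17.2% lower and 9.79% higher. No chaperone transcript was called by edgeR or limma-voom, with 30 and 37 at an unadjusted p under 0.05.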
